A study of Mus musculus with 28 samples.

Results

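Libraries of retinal microglia sorted from single mouse eyes held messages of genes that mark other cells of the retina. The levels of 29 of these messages are described here, and the cells they came from were not tested. The 29 genes were given as a list of symbols, by no threshold on their values but with earlier results of these data known, as markers of rods (12 genes), cones (5), bipolar cells (3), Müller glia (5) and ganglion cells or neurons in general (4), and all 29 were found among the 40021 genes of the deposited table. Values are RPKM, which scales reads to transcript length and library size, so that levels can be set side by side between genes. Each library was made from tdTomato-high, DRAQ7-negative (live) cells of 1 retina of a male heterozygous Cx3cr1CreER:R26-tdTomato mouse on the C57BL/6 background, in which a tamoxifen-activated Cre recombinase under the control of the fractalkine receptor gene turns on a red fluorescent protein. Lipopolysaccharide (LPS) was injected into the vitreous to induce endotoxin-induced uveitis (EIU). The 28 retinas comprised 10 naïve retinas and, after LPS, 6 retinas collected 4 h later, 5 collected 18 h later and 7 collected 2 weeks later. No group had an injection without LPS. All groups carried the same transgenes and had received tamoxifen drops, and the sort used tdTomato and DRAQ7 fluorescence. The labels divide the retinas between experiment 1 (17 retinas, of which 6 were naïve and 3, 4 and 4 came from the successive times) and experiment 2 (11 retinas, 4 naïve and then 3, 1 and 3), and between 14 left and 14 right eyes. They do not say which eyes shared a mouse, and the p-values then measure the spread between retinas.

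Rods turn light into an electrical signal through transducin, which switches on a phosphodiesterase that lowers cGMP and closes a cGMP-gated channel; arrestin, recoverin and phosducin shape and end the response. Cones use related proteins of their own, bipolar cells carry the signal onwards, ganglion cells send it to the brain, and Müller glia recycle neurotransmitter and retinoid. Rods outnumber every other cell of the mouse retina, and microglia lie among all of these cells. In a bulk library of sorted cells, more foreign cells, more foreign RNA per library and less microglial RNA cannot be told apart.

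The libraries held between 7510000 and 19700000 alignments and between 6552 and 11825 genes at an RPKM of at least 1. A set of 7 libraries stood apart with 6552 to 8562 genes, against 9331 to 11825 in the other 21, although their alignments lay within the range of the rest. These 7 retinas of few genes were naïve retinas 3, 4, 5 and 6, 4 h retina 2, 18 h retina 4 and 2-week retina 1, and all 7 belonged to experiment 1. The sorted population carried its own markers, as the 17 genes of the microglial list held a median of 6.72% of the summed RPKM (range 1.78% to 10.8%) and all 17 had a median of at least 10 RPKM.

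Retinal messages were among the abundant ones in these libraries. The 29 genes together held a median of 1.04% of the summed RPKM of a retina (range 0.432% to 2.14%), and a median of 1.9% when the other genes among the 100 of the highest mean RPKM were left out of the sum. Rod genes made up most of it, with a median of 0.842% and a range of 0.352% to 1.88%. Cone genes held a median of 0.0515%, ganglion cell and neuron genes 0.0436%, Müller glia genes 0.0383% and bipolar genes 0.0318%. Of the 29 genes, 19 had a median of at least 10 RPKM, 8 had a median of at least 100 RPKM, and 17 reached 1 RPKM in all 28 retinas. The 5 rod genes Gngt1, Pdc, Gnat1, Pde6g and Rcvrn were among the 100 genes of the highest mean RPKM, and Gnat1 ranked 13 in the retina in which it ranked highest. All but Grm6 passed the filter of 1 RPKM in at least 5 retinas.

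**Figure D1:**
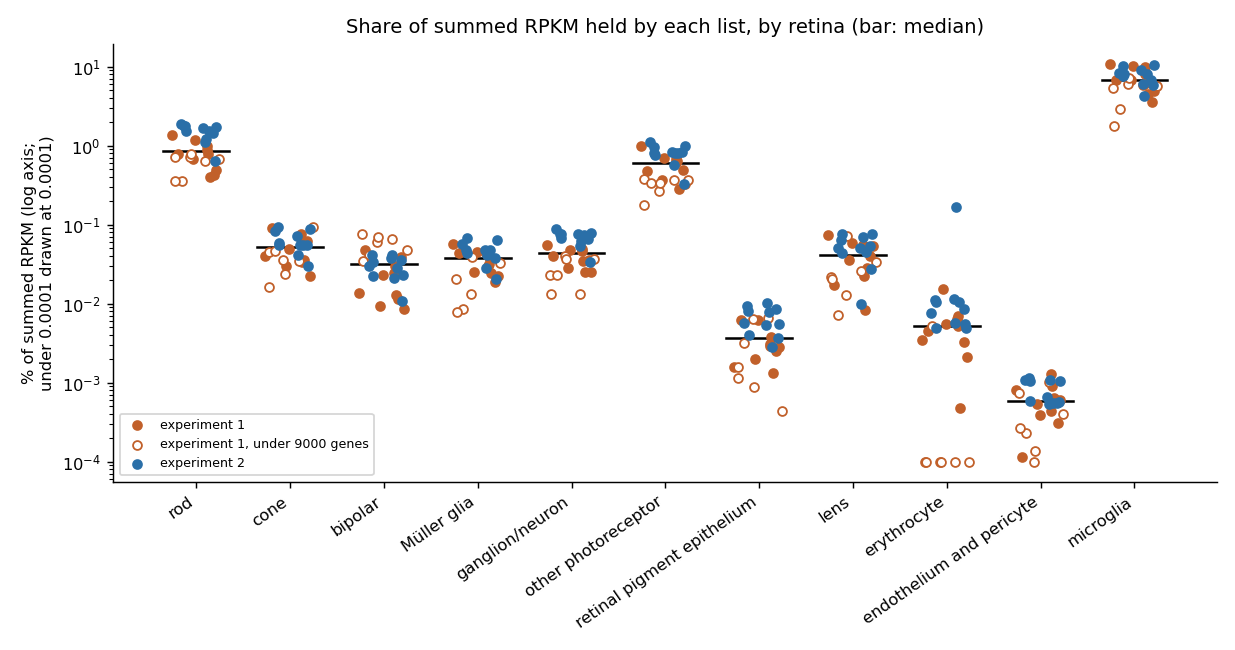
Percent of the summed RPKM of each retina (log axis) held by the 5 classes of retinal genes and by lists of other cell types; each point is a retina, bars are medians, colours give the experiment and open points are the 7 retinas of few genes. Shares under 0.0001% are drawn at that value. Rod genes sit between 0.352% and 1.88%, above the other 4 classes of retinal genes, and touch the low end of the microglial list (1.78% to 10.8%).

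By group, the share held by the 29 genes had a median of 1.31% in naïve retinas, with a range of 0.794% to 2.14%. It was 1.07% (0.472% to 1.64%) in 4 h retinas and 0.564% (0.432% to 0.766%) in 18 h retinas, and again 1.35% (0.962% to 2.03%) in 2-week retinas. The 18 h retinas were thus the lowest as a group, and their range lay below that of the naïve retinas and below that of the 2-week retinas. It overlapped with the range at 4 h. Between experiments the share differed in the naïve retinas without overlap, at 0.794% to 1.54% in experiment 1 and 1.71% to 2.14% in experiment 2. The single 18 h retina of experiment 2 held 0.735%, below the 4 naïve retinas of its own experiment, and the 4 in experiment 1 held 0.432% to 0.766%, below the 6 naïve retinas of theirs. No test was run on these shares, which are sums over the listed genes. They are divided by the summed RPKM, which was itself higher in 18 h retinas (441474 to 509597) than in naïve (298434 to 404838) or 2-week retinas (338164 to 396037). At 4 h it was 394112 to 509221. The part of this sum in the lower share at 18 h was not tested. In the same retinas the share of the microglial list had medians of 8.01%, 5.08%, 4.90% and 10.0% in the same order of groups, and the part of that change in the retinal share was not tested.

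The transducin subunits of rods differed in pattern. Gnat1, the rod transducin alpha subunit, was at 1343, 273, 83.9, 53.7, 65.7 and 61.5 RPKM in the naïve retinas of experiment 1 and at 1880, 861, 744 and 883 RPKM in those of experiment 2. At 4 h it was at 960, 98.4 and 159 RPKM in experiment 1 and at 767, 1614 and 1358 RPKM in experiment 2, and at 18 h at 629, 221, 460, 44.8 and, in experiment 2, 423 RPKM. The 2-week retinas gave 109, 789, 87.8 and 432 RPKM in experiment 1 and 2204, 1759 and 730 RPKM in experiment 2. The highest value exceeded the lowest 49.2-fold, and the low values recurred in every group of experiment 1 rather than at one time point.

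Gngt1, the gamma subunit of the same rod transducin, was high in most retinas of the lowest Gnat1. Its naïve values in experiment 1 were 245, 928, 1844, 1746, 1465 and 1513 RPKM, the lowest of the 6 in the retina with the highest Gnat1 of the 6, and in experiment 2 they were 749, 1141, 1213 and 905 RPKM. In the 7 retinas of few genes Gngt1 lay between 658 and 2162 RPKM and Gnat1 between 44.8 and 109 RPKM. The ratio of Gnat1 to Gngt1 therefore ranged from 0.0307 in naïve retina 4 to 5.51 in 2-week retina 5, a 179-fold range between products of one cell type. Among the other 21 retinas it still ranged from 0.0635 to 5.51. The 2 genes had a Spearman rho of -0.54 over the 28 retinas, of -0.77 in experiment 1 and of -0.52 in experiment 2, but of only -0.19 without the 7 retinas of few genes.

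**Figure D2:**
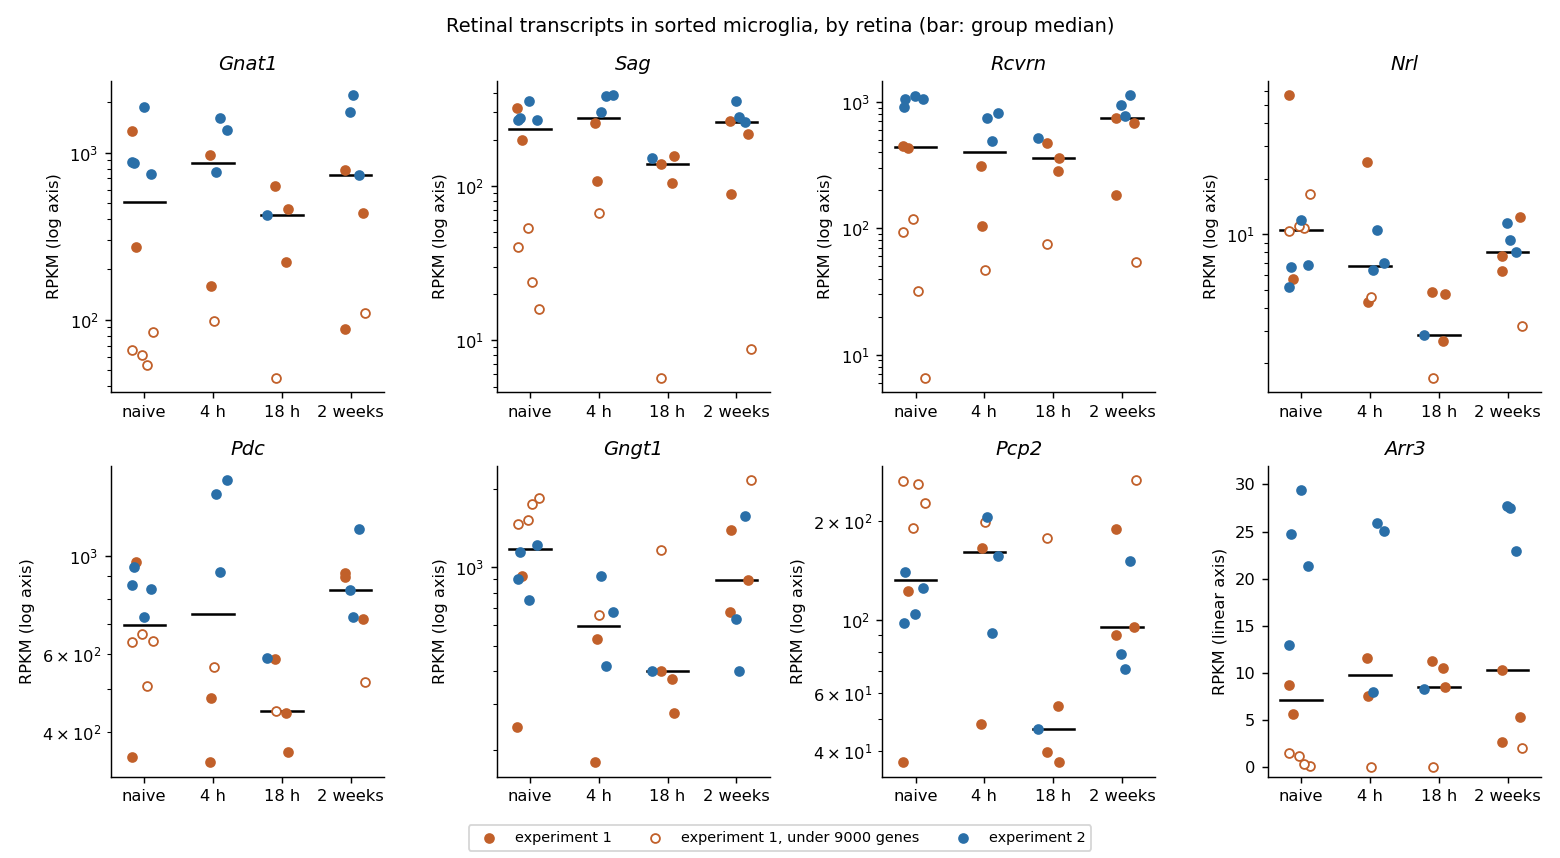
RPKM of 8 retinal transcripts in each retina by group (log axis, except Arr3 on a linear axis); bars are group medians, colours give the experiment and open points are the 7 retinas of few genes. Open points are low for Gnat1, Sag, Rcvrn and Arr3 and high for Gngt1 and Pcp2, and for Nrl the 18 h points (1.67 to 4.88 RPKM) lie below every naïve point (5.17 to 56.8 RPKM).

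Of the phosphodiesterase subunits, Pde6b (catalytic beta) and Pde6g (inhibitory gamma) reached 267 and 1527 RPKM and fell to 2.13 and 22 RPKM in their lowest retinas. Pde6a (catalytic alpha) stayed lower, with a median of 8.51 RPKM and a range of 0.201 to 27.3 RPKM. Sag, rod arrestin, had a median of 208 RPKM (5.69 to 388), and Rcvrn, the calcium sensor recoverin, 459 RPKM (6.55 to 1127). Both were lowest in retinas of few genes, where Sag did not exceed 66.4 RPKM, while it was at least 88.2 RPKM in the other 21. Pdc, phosducin, differed from them in varying less, at 341 to 1485 RPKM with a 4.36-fold range, the narrowest of the rod genes. In 10 of the 17 retinas of experiment 1 it still lay below all retinas of experiment 2. In the retinas of few genes Pdc was at 446 to 665 RPKM, within its range of 341 to 1485 RPKM in the others.

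Among genes for the structure of the outer segment, Prph2 (peripherin-2, needed for disc rims) had a median of 132 RPKM and an 84.4-fold range, and Rp1 (a microtubule protein of the axoneme) a median of 29.4 RPKM and an 18.4-fold range. Cnga1, the rod cGMP-gated channel alpha subunit, varied only 5.17-fold, between 15.2 and 78.3 RPKM. Nrl, the transcription factor that directs rod fate, was the least abundant rod gene by its median, at 6.93 RPKM, with 1 value far above the others (56.8 RPKM in naïve retina 1).

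The promoters of 5 rod genes are shown, picked by their correlations in these data. Sag, Pde6b and Prph2 followed Gnat1 across the retinas whereas Gngt1 and Pdc did not. Whether promoter sequence bears on these correlations was not tested. The promoters run from 250 bases before to 50 bases after the start of the gene. They come from RefSeq on GRCm38.p6, the assembly also called mm10, in which 19 of the 29 genes had an entry and Gnat1 had none. Capitals mark the core of the CRX site (TAATCC, or GGATTA on the other strand) and a half-site of the NRL element (TGCTGA, or TCAGCA), which do not overlap here.
Sag (chr1:87803430-87803729, + strand): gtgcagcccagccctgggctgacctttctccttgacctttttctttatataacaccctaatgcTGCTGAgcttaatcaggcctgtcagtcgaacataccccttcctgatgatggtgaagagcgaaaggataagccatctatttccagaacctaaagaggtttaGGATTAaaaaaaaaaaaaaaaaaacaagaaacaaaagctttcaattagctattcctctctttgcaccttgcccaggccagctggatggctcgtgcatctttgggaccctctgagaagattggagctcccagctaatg
Pde6b (chr5:108388123-108388422, + strand): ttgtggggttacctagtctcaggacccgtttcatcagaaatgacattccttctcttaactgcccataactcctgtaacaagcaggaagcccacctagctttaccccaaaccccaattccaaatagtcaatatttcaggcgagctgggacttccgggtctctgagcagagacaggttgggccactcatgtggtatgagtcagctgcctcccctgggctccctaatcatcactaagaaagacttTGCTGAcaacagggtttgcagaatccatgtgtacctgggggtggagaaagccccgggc
Prph2 (chr17:46910228-46910527, + strand): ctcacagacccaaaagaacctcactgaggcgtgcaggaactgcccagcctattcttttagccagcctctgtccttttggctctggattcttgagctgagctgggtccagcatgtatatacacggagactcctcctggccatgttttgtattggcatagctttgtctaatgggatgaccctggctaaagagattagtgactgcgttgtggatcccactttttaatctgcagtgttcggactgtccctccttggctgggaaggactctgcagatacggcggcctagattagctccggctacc
Gngt1 (chr6:3993758-3994057, + strand): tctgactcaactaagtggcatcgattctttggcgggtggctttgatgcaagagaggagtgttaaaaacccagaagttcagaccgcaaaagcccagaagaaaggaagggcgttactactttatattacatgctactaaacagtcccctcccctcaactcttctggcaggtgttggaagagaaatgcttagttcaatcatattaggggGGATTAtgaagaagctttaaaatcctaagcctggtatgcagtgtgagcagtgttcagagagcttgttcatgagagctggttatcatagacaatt
Pdc (chr1:150319167-150319466, + strand): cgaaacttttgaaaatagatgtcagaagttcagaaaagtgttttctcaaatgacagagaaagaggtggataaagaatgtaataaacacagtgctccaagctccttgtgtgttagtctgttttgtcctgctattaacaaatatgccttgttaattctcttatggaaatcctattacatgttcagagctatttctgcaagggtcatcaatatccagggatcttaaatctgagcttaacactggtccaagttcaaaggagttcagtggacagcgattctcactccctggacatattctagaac
The CRX core was in 3 of 7 rod promoters (Sag, Gngt1 and Cnga1) and in 7.06% of 32851 promoters of this length, and the NRL half-site was in 2 of 7 (Sag and Pde6b) and in 19.5% of all. Prph2 and Pdc held neither of them.

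Cone messages varied as widely. Opn1sw, the short-wavelength opsin, had a median of 68.4 RPKM (1.74 to 125) and Opn1mw, the medium-wavelength opsin, 81.3 RPKM (21.7 to 314). Arr3, cone arrestin, was at 7.99 to 29.4 RPKM in all 11 retinas of experiment 2, at 0 to 11.6 RPKM in experiment 1, and listed at 0 in 4 h retina 2 and 18 h retina 4. Gnat2, cone transducin alpha, was at 0 to 0.337 RPKM in naïve retinas 3 to 6 but at 13.3 to 48.1 RPKM in every retina after LPS, those of few genes included. In naïve retinas 1, 2 and 7 to 10 it was at 15.7 to 38.4 RPKM, so that the low values formed a separate set of 4. Pde6h, the inhibitory subunit of the cone phosphodiesterase, was at 2.93 to 26 RPKM.

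Bipolar cells were represented mainly by Pcp2, with a median of 124 RPKM (36.8 to 267). Trpm1, the channel that answers light in ON-bipolar cells, and Grm6, the glutamate receptor that controls it, had medians of only 1.43 and 0.513 RPKM, and each was listed at 0 in some retinas (2 for Trpm1 and 4 for Grm6). Pcp2 moved with Gngt1 (rho 0.84; 0.88 in experiment 1 and 0.75 in experiment 2) and was at 177 to 267 RPKM in the retinas of few genes, where Trpm1 did not exceed 0.754 RPKM. The bipolar markers Trpm1 and Pcp2 had a rho of -0.51 with each other, and of -0.15 without those retinas.

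Of the Müller glia genes, Glul (glutamine synthetase) and Clu (clusterin), which other cells also express, had medians of 78.4 and 43.7 RPKM. Rlbp1, which binds retinaldehyde in Müller glia, had a median of 5.57 RPKM and a range of 0 to 35.4 RPKM. Aqp4, the water channel of glial endfeet, was at 0 to 4.66 RPKM and Dkk3, a secreted protein of the Dickkopf family, at 0.0864 to 32 RPKM. Clu was at 42.5 to 98.2 RPKM throughout experiment 2 and at or under 11 RPKM in the 7 retinas of few genes. Snap25, a protein of the synaptic vesicle machinery, and Sncg, gamma-synuclein of ganglion cells, had medians of 96.4 and 74.8 RPKM. Nefl, the neurofilament light chain, had a median of 9.26 RPKM, and the non-coding RNA Meg3 one of 0.649 RPKM.

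Whether the retinal messages rose and fell together was described with the mean log2(RPKM + 1) of the rod genes, leaving out the gene compared. Rcvrn (rho 0.93), Sag (0.92), Pde6g (0.91), Gnat1 (0.86), Prph2 (0.84), Pde6a (0.84) and Pde6b (0.77) followed it closely over the 28 retinas. So did genes of other cells, with Arr3 and Snap25 at 0.91, Clu at 0.85, Rlbp1 and Opn1sw at 0.83, and Trpm1 and Gnat2 at 0.80. Nrl (0.24), Opn1mw (-0.12), Gngt1 (-0.36) and Pcp2 (-0.44) did not. The negative values were lost without the 7 retinas of few genes, when Gngt1 was at 0.18 (but at -0.29 in experiment 2, which held none of them), Pcp2 at 0.22, Opn1mw at 0.02 and Nrl at 0.44, while the 7 rod genes named first were at 0.48 (Pde6b) to 0.85 (Rcvrn). By their median, pairs of rod genes were no closer than pairs of a rod with a cone gene. The 66 pairs of rod genes had rho values from -0.57 to 0.97 with a median of 0.50, and the 60 pairs of a rod with a cone gene had values from -0.45 to 0.91 with the same median. Medians were lower for a rod gene with a Müller glia (0.43), a ganglion cell or neuron (0.36) or a bipolar gene (0.33). Over all 406 pairs the median rho was 0.40, with 55 pairs below 0. All pairs share library depth and scaling, so that these values are descriptions without a test.

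**Figure D3:**
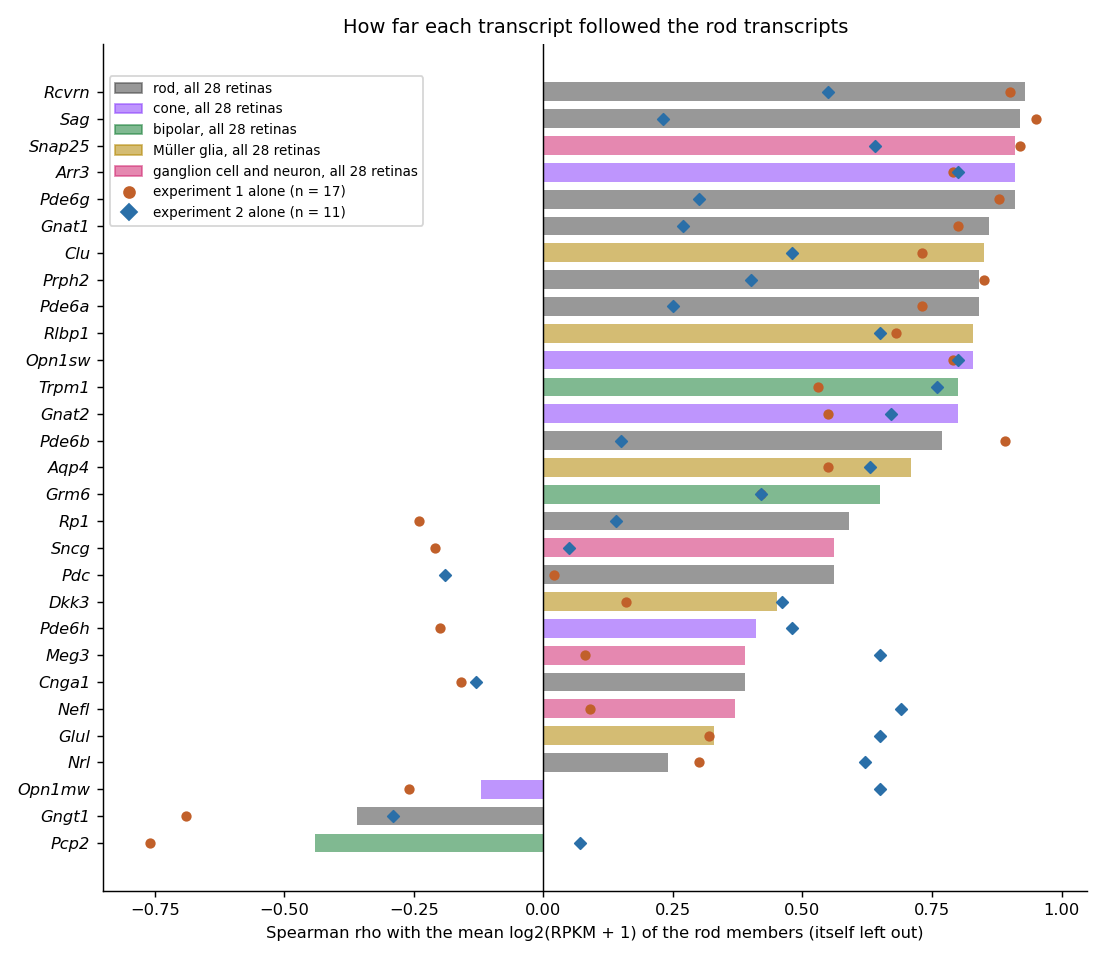
Spearman rho of each of the 29 transcripts with the mean log2(RPKM + 1) of the rod transcripts, itself left out; bars give all 28 retinas, coloured by class, circles experiment 1 alone and diamonds experiment 2 alone. Bars run from 0.93 (Rcvrn) to -0.44 (Pcp2; 0.22 without the 7 retinas of few genes), and for most rod transcripts that lie high in experiment 1 the diamond lies far lower.

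The pattern depended on the experiment. In experiment 1 alone the median rho of the 66 rod pairs was 0.18, and in experiment 2 alone it was 0.09. Within experiment 2 the rod genes formed separate sets rather than a single one. Gnat1 kept its relation with Prph2 (rho 0.96), Pde6b (0.92) and Sag (0.73), and had a rho of 0.73 with Nrl, against 0.23 in experiment 1, while its rho with Rcvrn was -0.05 and with Pde6g -0.18, both of which had been 0.80 or more in experiment 1. Pde6g in turn went with Cnga1 (0.87), Rcvrn (0.86) and Gngt1 (0.86) in experiment 2, and Cnga1 with Gngt1 at 0.98. The pair of Gnat1 and Prph2 stayed at 0.97 over all retinas, 0.97 in experiment 1 and 0.96 without the retinas of few genes. The 2-week retina 7, with 730 RPKM of Gnat1 but 1465 of Pde6g, 78.3 of Cnga1 and 1570 of Gngt1, and 2-week retina 5, with 2204, 825, 29 and 400 RPKM, show the sets side by side.

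The base composition and length of the transcripts lie beside this pattern. The 4 rod transcripts of the lowest GC content, Gngt1 (35.8%), Pdc (37.8%), Rp1 (39.6%) and Cnga1 (42.6%), had rho values of -0.36, 0.56, 0.59 and 0.39 with the other rod genes, against 0.77 to 0.93 for the other rod transcripts apart from Nrl (GC 54.4%, rho 0.24). Across the 12 rod genes GC content and rho had a Spearman rho of 0.53, across the 29 genes 0.33 and across 12954 genes tested 0.23; transcript length gave -0.41, -0.24 and 0.08. With the trend of GC content and length removed within each retina, Gngt1 was at -0.25 and Pcp2 at -0.34, while Nrl turned from 0.24 to -0.18 and Meg3 from 0.39 to -0.25. Without the retinas of few genes the 4 rod transcripts of low GC content were at 0.18, 0.42, 0.61 and 0.53, which overlaps the range of the others (0.48 to 0.85, with Nrl at 0.44). The part of base composition and length in the pattern was not tested.

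Single relations of Gnat1 were tested over the 28 retinas on log2(RPKM + 1), with 9 relations in the family, a two-sided permutation test of 100000 resamples and Benjamini-Hochberg adjustment. Gnat1 rose with Sag (r = 0.88, rho = 0.94), Arr3 (r = 0.92, rho = 0.91), Trpm1 (r = 0.85, rho = 0.83) and Rlbp1 (r = 0.83, rho = 0.89), each with a permutation p of 1.0e-05, the smallest these resamples can give, and an adjusted p of 1.8e-05. Without the 2 retinas farthest from the median of Gnat1 (18 h retina 4 and naïve retina 4) r was 0.86, 0.89, 0.88 and 0.87. In experiment 1 alone r was 0.83, 0.86, 0.74 and 0.67, and in experiment 2 alone 0.78, 0.75, 0.79 and 0.94, with permutation adjusted p from 0.00027 to 0.0087. Without the 7 retinas of few genes it was 0.90, 0.81, 0.78 and 0.80, and in the naïve retinas alone 0.93, 0.93, 0.89 and 0.89. One gene each of cones, bipolar cells and Müller glia thus followed a rod gene in both experiments. Each had the highest rho with Gnat1 of its class over the 28 retinas, and not all genes of its class followed. The other cone genes were at 0.74 (Gnat2), 0.65 (Opn1sw), 0.18 (Pde6h) and -0.41 (Opn1mw). The other bipolar genes were at 0.69 (Grm6) and -0.59 (Pcp2). The other Müller glia genes were at 0.82 (Clu), 0.61 (Aqp4), 0.5 (Dkk3) and 0.15 (Glul).

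Pdc (r = 0.33, rho = 0.36) and Nefl (r = 0.34, rho = 0.31) did not pass the test with Gnat1, at permutation p of 0.091 and 0.072 and adjusted p of 0.12 and 0.11. Without the 2 farthest retinas r was 0.24 and 0.30. Within the experiments r was -0.23 and 0.00 for Pdc and 0.07 and 0.59 for Nefl. For Cx3cr1, the fractalkine receptor gene of microglia, r was 0.28 and rho 0.25 (permutation p = 0.14, adjusted p = 0.16), and r was 0.34 without the 2 farthest retinas, 0.25 in experiment 1 and 0.28 in experiment 2. On residuals from the group means it was 0.59 (permutation adjusted p = 0.001). Gnat1 also rose with the number of genes at an RPKM of at least 1 (r = 0.87, rho = 0.89, permutation p = 1.0e-05, adjusted p = 1.8e-05), with r at 0.84 without the 2 farthest retinas and 0.83 in experiment 1. In experiment 2 that r was 0.44 (permutation adjusted p = 0.26), so the relation did not pass the test there. The number of alignments gave r = 0.19 and rho = 0.13 (permutation p = 0.34, adjusted p = 0.34), 0.22 without the 2 farthest retinas, -0.04 in experiment 1 and -0.39 in experiment 2.

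**Figure D4:**
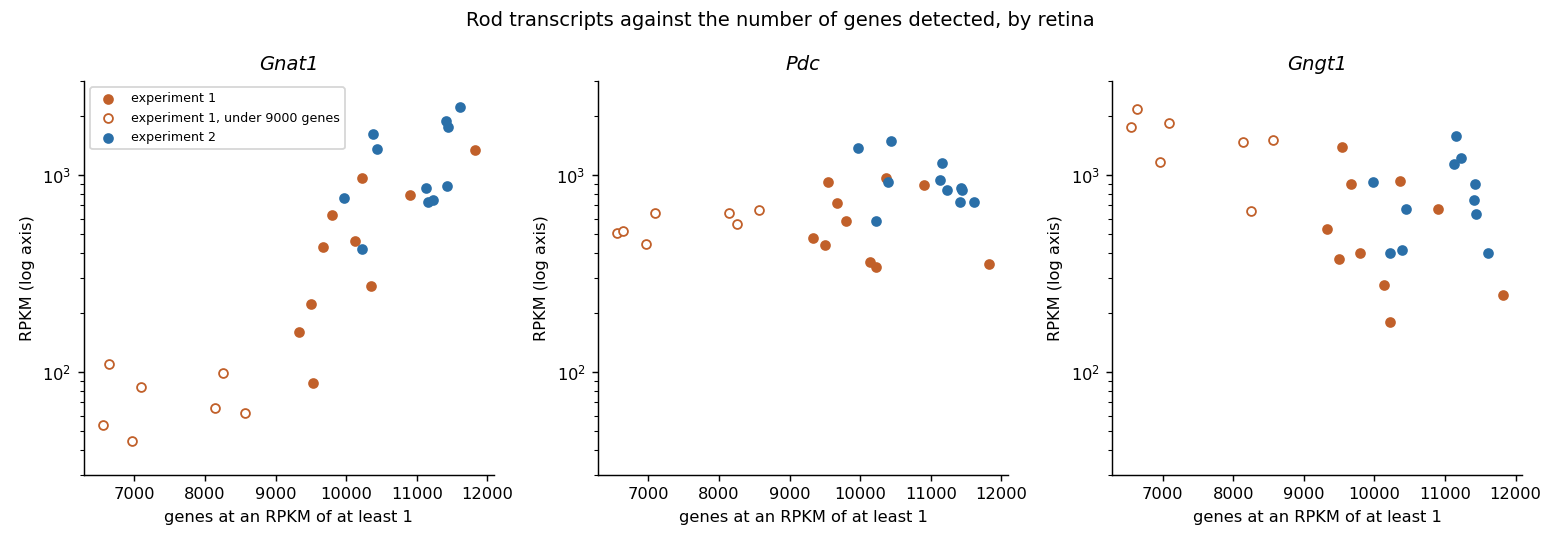
RPKM of Gnat1, Pdc and Gngt1 (log axes of equal range) against the number of genes at an RPKM of at least 1, a point per retina, coloured by experiment and open for the 7 retinas of few genes. Gnat1 climbs from 44.8 to 2204 RPKM with the number of genes, Pdc stays between 341 and 1485 RPKM, and Gngt1 is at 658 to 2162 RPKM in the open points.

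The experiments were compared in a limma fit with group and experiment as terms, in which a call needed both a Benjamini-Hochberg adjusted p no higher than 0.05 and a change of 2-fold or more. Of the 28 genes tested, 13 were called and all 13 were higher in experiment 2, against 8.08% of all 13164 genes called in either direction and 6.91% called higher. They comprised 7 rod genes (Gnat1, Pde6a, Pde6g, Sag, Rcvrn, Prph2 and Rp1), the cone genes Arr3 and Gnat2, Trpm1, Rlbp1, Clu and Sncg. The median difference was 1.03 on the log2(RPKM + 1) scale for the 28 genes and 1.67 for the rod genes, with a median of 0.34 over all genes. Rcvrn differed by 2.52 (SE 0.51, adjusted p = 0.0032), Gnat1 by 2.39 (SE 0.49, adjusted p = 0.0032), Arr3 by 2.28 (SE 0.44, adjusted p = 0.0022) and Rp1 by 1.78 (SE 0.29, adjusted p = 5.2e-04). Rp1 was at 31.3 to 91.9 RPKM in experiment 2, and 15 of the 17 retinas of experiment 1 lay below that range. For Gngt1 the difference was -0.09 (95% interval -0.73 to 0.54), for Pcp2 -0.30 (-0.94 to 0.34), for Opn1mw -0.21 (-0.88 to 0.46) and for Nrl -0.22 (-0.86 to 0.41). Pdc (0.64), Cnga1 (0.71), Aqp4 (0.93) and Snap25 (0.97) had a limma adjusted p of 0.022, 0.037, 0.025 and 0.04. These fell short of a 2-fold change and were not called.

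Without the 7 retinas of few genes, which belonged to experiment 1 alone, 6 genes were called (Pde6g, Rcvrn, Rp1, Arr3, Clu and Sncg), with Rcvrn at 1.22 and Rp1 at 1.72 (limma adjusted p = 0.013 and 0.0057). Gnat1, at 1.31 (limma adjusted p = 0.104), was not called. Both the naïve retinas alone and the retinas after LPS alone gave 0 calls in limma, with 16 and 18 genes at an unadjusted p under 0.05 and with Gnat1 at 2.87 and 2.11 (limma adjusted p = 0.12 and 0.11). The shares of all genes called in these fits are not given here, so that the counts cannot be set against them. In the naïve group all 4 retinas of experiment 2 lay above all 6 of experiment 1 for 6 of the 28 genes (Pde6g, Rcvrn, Rp1, Arr3, Clu and Sncg), and groups did not overlap in either direction for 6.50% of all genes.

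**Figure D5:**
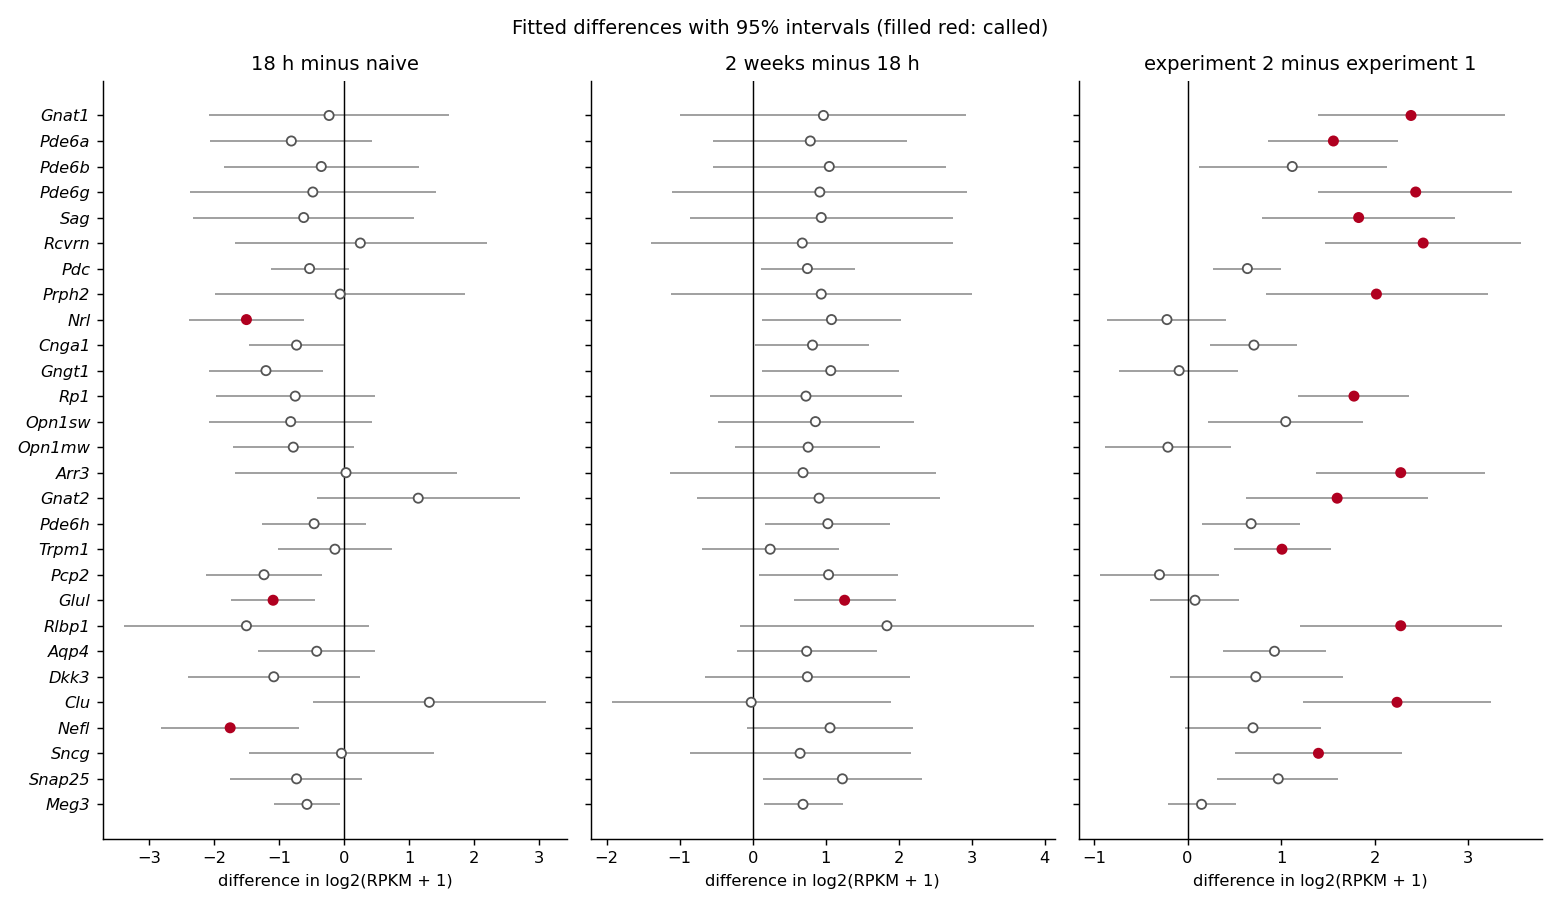
Fitted differences in log2(RPKM + 1) with 95% intervals for the 28 genes tested, for 18 h minus naïve, 2 weeks minus 18 h and experiment 2 minus experiment 1; filled points are genes called. Nrl, Glul and Nefl are the filled points at 18 h, Glul the one at 2 weeks, and 13 points are filled between the experiments.

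How far the retinal messages differed after LPS was tested in a limma fit of the 4 groups. The controls were naïve, so that LPS and the injection into the eye cannot be told apart. At 4 h none of the 28 genes was called against naïve, while 8.08% of all genes were. Only 3 had an unadjusted limma p under 0.05, namely Gngt1 (log2 difference -1.05, SE 0.41, adjusted p = 0.12), Glul (-0.74, SE 0.30, adjusted p = 0.14) and Gnat2 (1.76, SE 0.72, adjusted p = 0.14). Between these groups 0 of the 28 genes had ranges that did not overlap, against 3.07% of all genes. The intervals were wide for the genes that varied most, at -0.91 to 2.55 for Gnat1. None of the 28 was called for a change at 4 h that differed between the experiments, by the interaction term (0.0988% of all genes did; Pdc and Gnat2 had an unadjusted p of 0.038 and 0.041 and an adjusted p of 1 in limma).

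At 18 h, 3 of the 28 genes were called and all 3 were lower than in naïve retinas, against 4.69% of all genes called and 1.85% called lower. Nrl was at 4.88, 2.65, 4.73, 1.67 and 2.85 RPKM, and in naïve retinas at 5.17 to 56.8 RPKM with a median of 10.6 RPKM. The groups did not overlap, which held for 1 of the 28 genes and for 3.35% of all genes. Its log2 difference was -1.50 (SE 0.44, adjusted p = 0.038 by limma). Nefl was at 3.12, 2.36, 6.12, 0.886 and 6.96 RPKM against 6.37 to 24.5 RPKM (median 14.5) in naïve retinas, with 4 of 5 retinas below all naïve ones and a log2 difference of -1.75 (SE 0.52, adjusted p = 0.045 by limma). Glul was at 49.3, 71.9, 39.6, 25.4 and 34.9 RPKM against 41.4 to 166 RPKM (median 101), with 3 of 5 below all naïve retinas and a log2 difference of -1.09 (SE 0.32, adjusted p = 0.042 by limma). Clu, also of the Müller glia class, had a difference of 1.31 (SE 0.88, adjusted p = 0.47), and Gnat1 one of -0.23 (95% interval -2.07 to 1.61).

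These calls rested on few retinas. Without 18 h retina 4, a retina of few genes, none of the 3 was called (Nrl -1.34, Nefl -1.46 and Glul -0.92, with limma adjusted p of 0.098, 0.14 and 0.12; 5 of the 28 genes had an unadjusted p under 0.05), while Gngt1 and Pcp2 were. With experiment as a covariate Nrl (-1.55) and Glul (-1.08) were called and Nefl (-1.61, limma adjusted p = 0.0501) was not. In experiment 1 alone the differences were -1.81 for Nrl, -1.98 for Nefl and -0.93 for Glul, with limma adjusted p of 0.15, 0.16 and 0.38, and in experiment 2, with a lone 18 h retina taken to vary like the other groups, -1.11, -0.86 and -1.49, with 0.23, 0.31 and 0.048. Without the retinas of few genes they were -1.25, -1.43 and -1.09, with limma adjusted p of 0.11, 0.0503 and 0.0037, so that Nrl and Nefl were no longer called, while Opn1sw and Pde6a were called beside Glul. Of the 28 genes, 24 had a fitted difference below 0 at 18 h, with a median of -0.60 against -0.08 over all genes. Among these 24 were 11 rod genes, with values from -0.06 (Prph2) to -1.50 (Nrl), and the remaining rod gene, Rcvrn, was at 0.25. This count and median come from the fit without an experiment term. Experiment 2, where the 28 genes were higher by a median of 1.03, gave 1 of 5 retinas at 18 h but 4 of 10 naïve retinas. The part of this mix in the lower values at 18 h was not tested. Pcp2 (-1.23, SE 0.44, adjusted p = 0.11) and Gngt1 (-1.20, SE 0.43, adjusted p = 0.11) had an unadjusted limma p under 0.05 without being called.

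From 4 h to 18 h none of the 28 genes was called, against 5.42% of all genes, and 26 of 28 differences were below 0. Nrl, Pcp2 and Nefl had an unadjusted limma p under 0.05, with differences of -1.10, -1.14 and -1.20. From 18 h to 2 weeks, 27 of 28 differences were above 0, with a median of 0.88 against 0.16 over all genes, and these values share their 18 h retinas with the comparisons above. Glul was called (1.26, SE 0.34, adjusted p = 0.038 by limma), against 2.65% of all genes called and 1.10% called higher. Its values were 75.9 to 144 RPKM at 2 weeks and 25.4 to 71.9 RPKM at 18 h. The share of all genes without overlap between these groups was not computed, so that this separation cannot be judged. The difference was 1.29 in experiment 1 and 1.38 in experiment 2, with limma adjusted p of 0.43 and 0.068 in the fits of a single experiment, and 1.00 without the retinas of few genes (adjusted p = 0.0079). Without 18 h retina 4 it was 1.09 (limma adjusted p = 0.11) and not called. The counts of differences below and above 0 in these comparisons also come from the fit without an experiment term. Experiment 2 gave 3 of 6 retinas at 4 h, 1 of 5 at 18 h and 3 of 7 at 2 weeks, and the part of this mix was not tested.

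At 2 weeks none of the 28 genes was called against naïve retinas, where 0.00760% of all genes were, and the groups overlapped for each of the 28 (no overlap for 0.00760% of all genes). Gnat2 was the only one with an unadjusted limma p under 0.05 (2.04, SE 0.69, adjusted p = 1), and the median difference was 0.27 against 0.07 over all genes. Intervals still allowed changes of over 2-fold for many genes, at -0.91 to 2.39 for Gnat1 and -1.20 to 1.84 for Sag, but were narrower for Pdc (-0.32 to 0.77). Between right and left eyes 0 of the 28 genes was called, as was 0.00% of all genes, with 1 unadjusted limma p under 0.05 (Nrl, -0.60).

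Further lists of marker genes, chosen as wider sets for the same and for other cells, were set beside the 29. Of 40 more photoreceptor genes, 39 passed the filter, led by Guca1a (72.2 to 1235 RPKM) and Gnb1 (162 to 530 RPKM). The list held a median of 0.595% of the summed RPKM. Guca1a had a rho of 0.86 with the mean of the rod genes but Gnb1 one of 0.07, and the cells behind this share were not tested. In experiment 2, 18 of the 39 were called higher and 0 lower, with a median difference of 1.15; at 4 h 1 was called (Gngt2, cone transducin gamma, -1.49, SE 0.38, adjusted p = 0.01 by limma), and at 18 h Grk1, rhodopsin kinase, was called lower (-1.11, SE 0.31, adjusted p = 0.034 by limma). Samd7 was called lower from 4 h to 18 h (-1.97, adjusted p = 0.0082 by limma). Of the other bipolar genes 12 of 20 passed the filter (led by Gng13 and Scgn), of the amacrine and horizontal cell genes 10 of 20 (led by Calb2 and Npy), of the ganglion cell and neuron genes 16 of 20 (led by Gap43 and Stmn3), and in experiment 2 they gave 4, 2 and 5 calls, all higher. At any time against naïve none of these 3 lists had a call in limma, with 0 to 2 genes of a list at an unadjusted p under 0.05, and from 4 h to 18 h Prox1 was called lower (-1.31, adjusted p = 0.042 by limma).

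The wider Müller glia and astrocyte list is led by Apoe (105 to 10004 RPKM), which microglia also make, and Dbi, and held a median of 0.466% of the summed RPKM. Of its 17 genes tested, Id3 was called higher at 4 h (2.45, adjusted p = 0.0052), Cp, ceruloplasmin, higher at 18 h (3.03, adjusted p = 4.2e-04) and Slc1a3, a glutamate transporter, lower from 4 h to 18 h (-1.49, adjusted p = 0.026), all by limma. Cp went on from 4 h to 18 h at 1.98 (adjusted p = 0.042) and fell by 2.24 from 18 h to 2 weeks (adjusted p = 0.026), again by limma. These 3 genes are also made by other cells.

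Tissue next to the neural retina was unevenly represented. The 16 lens genes held a median of 0.0418% (12 past the filter, led by Crybb1 with a median of 45.6 RPKM and Cryba4 with 40.2 RPKM). Among the 29, the 3 bipolar genes held 0.0318% and the 5 Müller glia genes 0.0383%. These sums run over lists of unlike length, so that they do not rank the tissues. Retinal pigment epithelium genes held 0.0037% (6 of 12 past the filter, led by Ttr and Rdh5). Of these, Rgr was called higher at 4 h (1.38, adjusted p = 0.05 by limma). Endothelial and pericyte genes held 0.000582%, with 2 of 14 genes past the filter (Kdr and Pecam1) and 10 of 14 at a median under 0.1 RPKM. Globin and other erythrocyte genes ranged from 0% to 0.168% (Hba-a2 up to 395 RPKM and Hbb-bs up to 239 RPKM), and 3 of 4 tested were called higher in experiment 2, as were 3 of 12 lens and 2 of 6 pigment epithelium genes. Among blood leukocytes, 1 of 10 neutrophil genes passed the filter (Csf3r, median 11.9 RPKM; S100a8 had a median of 0), 1 of 8 monocyte genes (Plac8, median 0.723 RPKM; Fn1 was at 0.032 RPKM) and 2 of 10 lymphocyte genes (Cd79b, median 29.4 RPKM, and Nkg7, median 0). No neutrophil or monocyte gene was called by limma in any of the comparisons, with an unadjusted p under 0.05 for Plac8 at 18 h against naïve and for Csf3r from 18 h to 2 weeks. Nkg7 was called higher at 18 h (4.36, adjusted p = 2.0e-10 by limma) and lower from 18 h to 2 weeks (-4.17, adjusted p = 4.2e-09 by limma). Its values ran from 0 to 86.4 RPKM with a median of 0, and its difference from 4 h to 18 h was also 4.36. The p-values of Nkg7 thus set 18 h retinas against values largely at the floor, and do not measure the strength of the change. Cd79b was called lower at 4 h (-1.56, adjusted p = 9.0e-04 by limma). Of the 17 microglial genes, led by Ctss (4200 to 15196 RPKM), 2 were called between the experiments, both higher in experiment 2 (P2ry12, 1.07, and C1qa, 2.06), 6 were called lower at 4 h (Sall1, -2.96, Gpr34, -3.54, and P2ry12, -2.35, had the smallest p) and 8 lower at 18 h, with medians of -0.87 and -1.04. The part of these markers in the results above was not tested.

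The genes outside the 29 that followed the rod genes most closely were named by rule, as the 15 of the highest Spearman rho with the mean of the 12 rod genes over the 28 retinas. These were Tspan7 (0.97), Car2 (0.96), Cplx3, Laptm4b and E130218I03Rik (0.94), Rab3a (0.93), Zfp763 (0.92), Gm48551, Rtbdn, Mgarp and Scg2 (0.91), and Epb41, Gpx4, Dpf3 and Pde6c (0.90). Car2 encodes a carbonic anhydrase, Cplx3 a complexin of ribbon synapses, Rab3a a GTPase of synaptic vesicles and Pde6c the cone phosphodiesterase. Car2 ranged from 0.167 to 142 RPKM, Tspan7 from 0.249 to 83.2 RPKM and Mgarp from 15.1 to 345 RPKM. Across all 13164 genes tested the median rho was 0.34 (-0.91 to 0.97), among the 39 further photoreceptor genes 0.75, and among the 17 microglial genes 0.45 (-0.63 to 0.82). All these values share the libraries and their number of genes detected, with which Prph2 (0.92), Gnat1 (0.89) and Sag (0.88) also had a high rho.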

How the data were processed

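Microglia of 28 single retinas were sequenced (polyA RNA, SMART-Seq v4). Per the submitters' processing notes, bcl2fastq 2.20, STAR 2.5.3a, Partek and mm10 were used. The deposited values are RPKM per gene and retina, which the authors made by assigning reads to Ensembl transcripts with an expectation-maximisation method that can divide a read between genes, so that whole reads cannot be recovered and an exact 0 can be an estimate. Its first line holds the alignments per retina; values near 0 rest on few reads. A further pair of tables, which hold the authors' own comparisons (p-values, ratios and fold changes for 4 h and 18 h), were not used.

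Of 40021 genes, the 13164 that reached 1 RPKM in 5 or more retinas were tested on log2(RPKM + 1), a scale that understates the change of low genes, with limma 3.58.1 in R 4.3.3 (empirical Bayes with a mean-variance trend, Benjamini-Hochberg adjustment over all genes tested, groups in 1 fit without covariates). Calls required an adjusted p no higher than 0.05 together with a 2-fold change. The fit was checked on simulated data. Correlations, figures and sequences were computed with Python 3.11.15; coordinates, GC content and length of the longest transcript come from GENCODE M21. Groups come from the labels.

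The members and lists were chosen with earlier results of these data known. All 29 members are named, and in each further list the 2 genes of the highest mean RPKM and up to 3 called genes per comparison by smallest p, besides the 15 genes of the highest rho with the rod members; retinas singled out were chosen after their values were seen. Some genes that this rule names are not reported here. Alternatives were a pseudocount of 0.1 or of 10, leaving out the filter or raising it to 5 RPKM, experiment or eye as a covariate, a replicate block, 1 experiment alone, rescaling to equal summed RPKM, quantile normalisation, adjusted p alone and each retina left out. Leaving out the 7 retinas with fewer than 9000 genes, removing the trend with GC content and length (splines of 4 degrees of freedom; both known for 98.4% of genes) and comparing the experiments with or without naïve retinas were chosen after seeing the data.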

Additional observations from a re-analysis of the deposited data

Results flagged for a closer look

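In 116 sets of 1 gene in 1 group, 19 had a highest or lowest retina whose gap to the next exceeded Dixon's critical value on log2(RPKM + 1), where chance flags about 1 in 20. The 18 h retina 4, with few genes, gave 8 of these. Pde6g was at 25.9 RPKM there (335 to 543 in the other 18 h retinas), Sag at 5.69 (105 to 156), Prph2 at 12.1 (79.4 to 134), Clu at 9.33 (44.9 to 56.9) and Snap25 at 6.76 RPKM (67.2 to 81.6), and Arr3 was listed at 0 (8.27 to 11.3). In the same retina Gngt1 was high at 1163 RPKM (277 to 401) and Pcp2 at 177 RPKM (36.8 to 54.7). The 2-week retina 1, also with few genes, was lowest for Pde6g at 22 RPKM (282 to 1465 in the others), Sag at 8.76 (88.2 to 355), Opn1sw at 1.74 (64.9 to 125) and Clu at 2.23 RPKM (31.3 to 82.8). The 4 h retina 2 was lowest for Arr3, listed at 0 (7.53 to 25.9), and Trpm1 at 0.0647 RPKM (1.3 to 1.74). Naïve retina 1, with the most genes, was highest for Nrl at 56.8 RPKM (5.17 to 16.6) and lowest for Gngt1 at 245 RPKM (749 to 1844) and Pcp2 at 37 RPKM (97.8 to 264). Sncg was at 0.395 RPKM in naïve retina 4 (23.4 to 150), and Grm6 at 1.44 RPKM in 4 h retina 4 (0.478 to 0.776). The part of the number of genes detected in these values was not tested.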

How the results depend on the processing

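No alternative reversed a called difference or correlation. The counts below are of the listed retinal genes, and the share of all genes called under each alternative is not given here. The count of 3 at 18 h against naïve was 0 at a pseudocount of 10, without a filter and in experiment 1 alone, 1 with the replicate block and in experiment 2 alone, 5 after rescaling, and 0 to 4 with each retina left out (0 without naïve retina 6 or 7 or 18 h retina 1 or 3; 1 without naïve retina 3, 8 or 10, 18 h retina 2 or 5 or 2-week retina 2). Without 18 h retina 4 the count was 2, but of other genes (Gngt1 and Pcp2). Of the 28 retinas left out in turn, Nrl kept its call in 20 (lost without naïve retina 3, 6 or 7 or any 18 h retina), Glul in 16 and Nefl in 12, with adjusted p up to 0.1, 0.12 and 0.14; Nefl was also lost with experiment as a covariate. The count of 0 at 4 h was 1 with the replicate block, in experiment 2 alone and after quantile normalisation, 2 after rescaling and 0 to 1 with each retina left out (1 without naïve retina 1); from 4 h to 18 h it was 1 in experiment 2 alone, after quantile normalisation and without the retinas of few genes. Glul from 18 h to 2 weeks was the 1 call, and the count was 0 with the replicate block, in experiment 1 alone and with the GC and length trend removed, 2 after rescaling and after quantile normalisation, 3 without the retinas of few genes, and 0 to 1 with each retina left out (0 without 18 h retina 1, 3, 4 or 5 or 2-week retina 2, 3 or 6). The 13 calls between the experiments were 0 with the replicate block, in naïve retinas alone and without naïve retinas, 6 without the retinas of few genes, and 9 to 15 with each retina left out. The 2-week, eye and interaction counts stayed at 0 throughout.

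Same-numbered retinas did not pair (34 pairs, r from -0.33 to 0.70, median 0.04, against 0.01 for other numbers; 15 pairs above 0.1; 7 of 28 retinas correlated best with their own number), and the numbers largely follow the experiments. With Gnat1, r for Pdc was 0.41 after rescaling, for Nefl 0.40 on residuals and after rescaling and 0.47 without the retinas of few genes, and for Cx3cr1 0.59 on residuals, all then past the threshold; for the number of genes it was 0.44 in experiment 2, and no longer was. The median rho of rod pairs moved from 0.50 to 0.18 and 0.09 in the experiments, and the median share of the 29 genes from 1.04% to 1.9% without the other genes among the 100 most abundant in the sum. The cause of these moves was not tested.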
